A study of Mus musculus with 12 samples.

Results

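CircRNAs whose deposited host field names 2 or more genes were examined in 4 mouse cell lines with 3 libraries each. They numbered 216 of the 13474 circRNAs that the tables list together, or 1.60%. The mammary table, which holds 4T1 (breast cancer cells) and Eph4-ev (breast epithelial cells), lists 160 of them among 9492 circRNAs (1.69%), all with reads. The melanocyte table, which holds B16F10 (melanoma cells) and Melan-a (melanocytes), lists 201 among 12910 (1.56%), of which 140 had reads. Both tables list 145 of them, with the same hosts in both. They were chosen by the comma in the host field alone, whatever their level. A sum of reads by host gene that uses circRNAs with a single host leaves all of them out.

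Total RNA of every line had been treated with RNase R, an enzyme that degrades most linear RNA, and no other treatment or genotype is given in the labels. The values are back-spliced junction reads, and libraries held between 15572 and 56649 of them, so that 1 read stood for 64.2 RPM, the deposited level scaled to the library total, in 4T1 replicate 1. Each lineage has a single tumour line and a single non-tumour line, so tumour state and any other difference between the 2 lines cannot be told apart. The labels name no separate cultures, so p-values measure only the spread between these libraries, which may be technical. Hosts from a list of 10 melanocyte genes had single-host circRNA reads for 0 genes in 4T1, 1 in Eph4-ev, 7 in B16F10 and 8 in Melan-a. From a list of 10 mammary epithelial genes the number was 4 in 4T1, 4 in Eph4-ev, 0 in B16F10 and 1 in Melan-a. From 9 mesenchymal genes it was 0 in 4T1, 2 in Eph4-ev, 0 in B16F10 and 1 in Melan-a. These were Fn1 and Zeb1 in Eph4-ev (24 reads) and Zeb2 in Melan-a (6 reads). From 7 immune genes it was 0 in every line.

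A circular RNA forms when the end of a downstream exon is joined to the start of an upstream exon of the same transcript. The host gene is then the gene whose exons supply both ends. Where annotated genes overlap, as a gene and an antisense RNA on the other strand do, a position lies in more than one gene, and a naming step that goes by position can return each of them. The deposited tables carry no strand, so the gene that supplies the ends was found from annotated exon edges.

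For 203 of the 216 circRNAs (94.0%), both ends were exon edges of 1 transcript of one named host in GENCODE M21, called the closing host here. In 15 of them, among these the Akap2/Pakap circRNAs given further on, 2 hosts each had a transcript with both ends, and the closing host is then a choice: a host with a gene name before one with an ID, Gm or LOC symbol, then the one with more exons. In 201 of the 203 the closing host was protein coding. In 5 others each end was an exon edge but no transcript held both, and in the last 8 only 1 end was an exon edge. The junctions of 6 abundant circRNAs whose edges are both annotated are printed to show which exons were joined. They are read 5′ to 3′ on the strand of the gene from GENCODE M21 transcripts (mm10). The last 15 bases of the closing exon are in lower case, and the first 15 bases of the opening exon are in capitals.
Eif5b/Rev1, chr1:38053616-38085652, minus strand: aaaatacatgaaaagGCACTATGTCAGTGT
Gm21992/Rbm4, chr19:4792398-4794009, minus strand: acacagagtttcaagGTAATTGGCGTTCCG
Gm21992/Rbm4, chr19:4787361-4794009, minus strand: cttttaaagtttgagGTAATTGGCGTTCCG
ENSMUSG00000089745.1/Galnt2, chr8:124295358-124305668, plus strand: cacccggcatgaccaGGTGACTGGAATGAC
Klhl2/LOC108167532, chr8:64811680-64834568, minus strand: gaggagaacgtgcagATGCACAAAGCAGGG
Gm42139/Klhl8, chr5:103885907-103886290, minus strand: gacgtcaccctgaagCAGACTGTATCGTGA
The pair from the Rbm4 locus has the same capitals, since both open at the same exon edge, and different lower-case bases, since they close at different exons. The Klhl8 circRNA is exon 1 of the transcript used, so its opening edge is the annotated start of that transcript.

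The host pairs were mostly overlapping genes on opposite strands. This held for 140 circRNAs (64.8%): in 100 one gene lay inside the other, in 33 the genes overlapped tail to tail, and in 7 head to head. Hosts on the same strand lay one inside the other in 26 and overlapped in part in 27. With 3 or 4 hosts, 10 circRNAs held more than 1 arrangement, and 13 could not be classed because a host had no match or no strand. Most circRNAs (206) had 2 hosts, 9 had 3 and 1 had 4, counting different names.

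Beside the closing host, these 203 circRNAs named 214 other hosts, of which 205 were matched to an annotation. The other host covered exactly 1 end of the circRNA in 128 cases, both ends in 74 and neither in 3. It lay on the opposite strand in 151 cases and on the same strand in 49. Exon edges could be looked up only for the 165 other hosts in GENCODE, and 30 of these had one at either end. The annotation typed 72 as antisense RNA genes and 45 as protein coding. Of all 214, 175 carried no gene name other than an ID or a Gm, LOC, Rik, Mir or Snor symbol. Of 218 circRNA ends that lay inside another host of GENCODE, 182 (83.5%) fell in an exon of it and 36 in an intron.

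**Figure D1:**
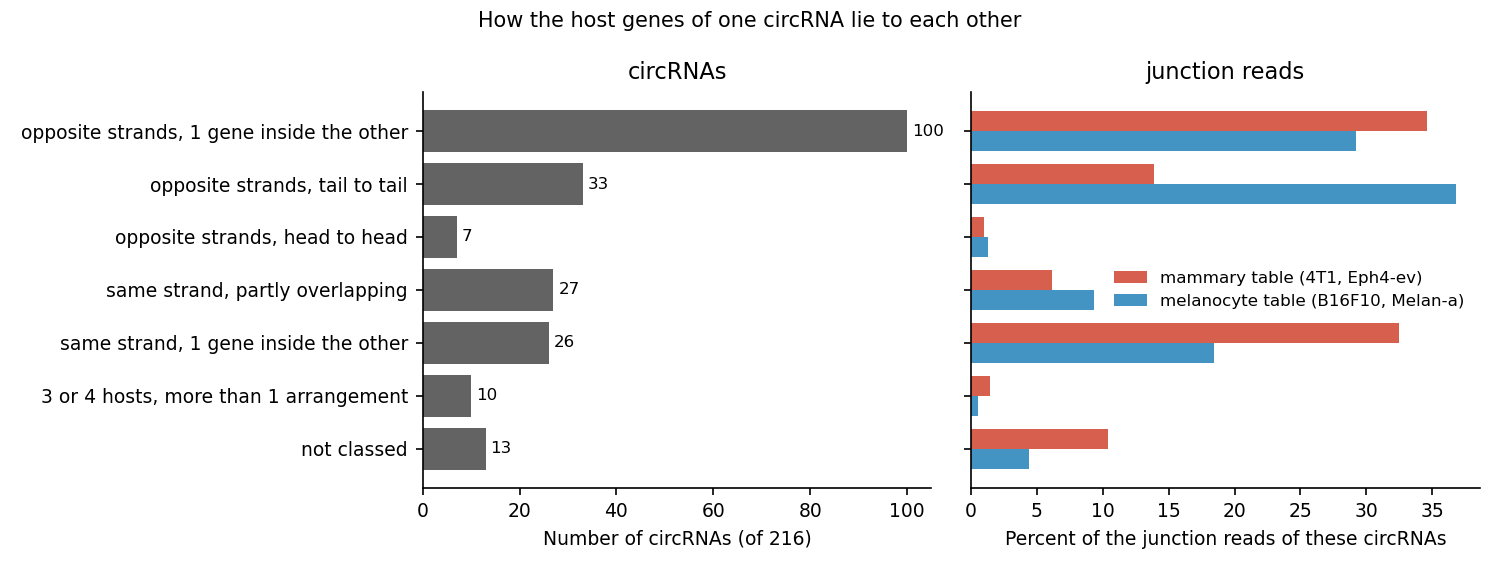
The left panel counts the 216 circRNAs by how their host genes lie to each other, and the right panel gives the percent of the junction reads of these circRNAs in each arrangement, in red for the mammary and blue for the melanocyte table. Hosts on opposite strands with one inside the other are the most frequent (100). Tail-to-tail pairs hold 36.8% of the reads in the melanocyte table and 13.9% in the mammary table. The Rev1 and Eif5b pair holds 924 of their 979 reads in the melanocyte table and 514 of 740 in the mammary table.

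In the transcript with the most exons between the ends, protein-coding transcripts preferred, the circRNA opened at exon 2 in 84 of 203 cases, at exon 1 in 1 case, and included the last exon in 2. Both ends fell in the coding sequence in 156, the first base fell in the 5′ UTR in 39 and the last base in the 3′ UTR in 6. They held a median of 3 exons and 492 exonic bases, with a range of 150 to 3703 bases. A single exon made up 12 of them and the largest number was 30.

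Spans, the genomic distance between the ends, were close to those of single-host circRNAs. The median was 6499 bp for circRNAs with several hosts and 7608.5 bp for those with a single host in the mammary table. Among circRNAs with reads in the melanocyte table it was 8106 bp with several hosts and 8623 bp with a single host. The share with both ends in 1 annotated transcript was 93.1% with several hosts and 98.1% with a single host in the mammary table, and 95.0% and 98.2% for the same pair among circRNAs with reads in the melanocyte table. These are descriptions without a test, since circRNAs are not replicates of a line.

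**Figure D2:**
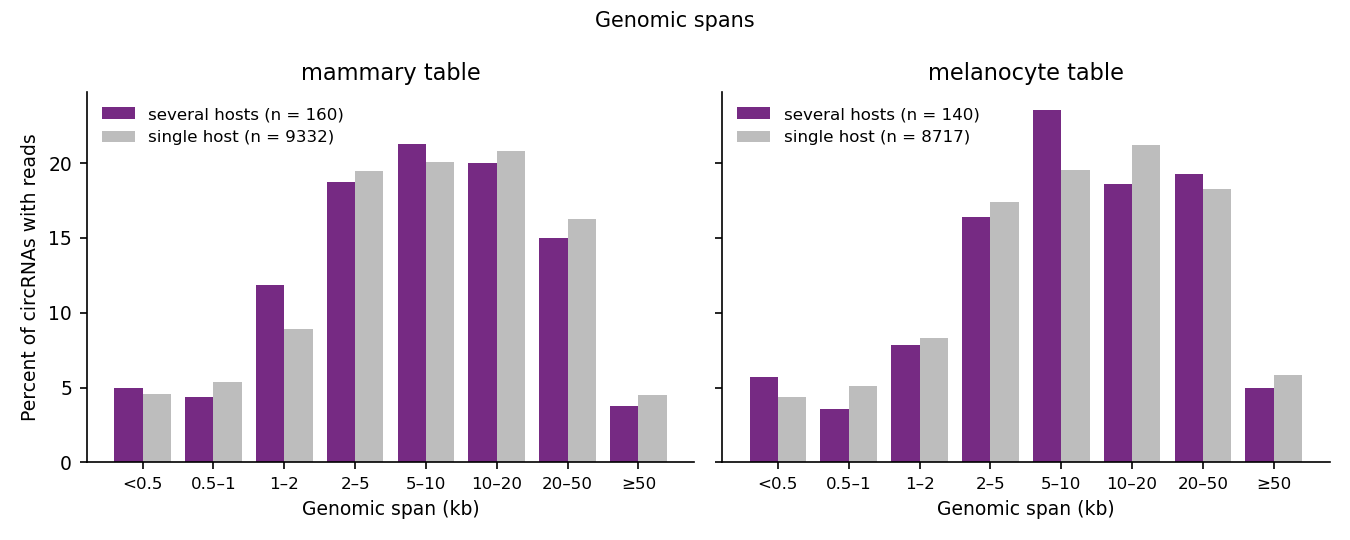
Percent of circRNAs with reads in each class of genomic span (kb), with several hosts in purple and a single host in grey, for the mammary and the melanocyte table. Both kinds of circRNA are spread over the same classes, and 3.75% with several hosts and 4.52% with a single host reach 50 kb in the mammary table.

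The extremes came from long genes and single exons. The longest, at 132055 bp, held exons 2 to 6 of Sox5, which encodes an SRY-box transcription factor, and its genomic start lies inside the antisense gene ENSMUSG00000087302.1. It had 0, 2 and 0 reads in B16F10, against 0, 0 and 1 in Melan-a. The next, 109694 bp from Pakap and Palm2, had 6 reads in Eph4-ev replicate 1 and 0 in the other 11 libraries. An 87538 bp circRNA of Lrba and Gm31677 had 1 read, in Melan-a replicate 3. The shortest, at 179 bp, was exon 4 of Akap2, which encodes an anchoring protein of protein kinase A, also named for Pakap, and had 1 to 3 reads in each of 6 libraries, at least 1 from every line. Of 2 other single exons, that of the receptor gene Fgfr1 (267 bp, with Gm16159) had 2, 0 and 3 reads in Eph4-ev and none in the 9 libraries of the other lines. That of Nfkbil1 (280 bp, with Atp6v1g2) had 6 reads in Melan-a replicate 2 and 0 in the other B16F10 and Melan-a libraries. The circRNA with 4 hosts, exons 3 to 5 of the beta-secretase gene Bace1, with Rnf214 and 2 genes named by an ID, had 1, 5 and 9 reads in 4T1, against 5, 4 and 3 in Eph4-ev. The melanocyte table lists it at 0 in all 6 libraries.

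Most of these circRNAs were rare. Reads were found for 209 of 216, with 97 detected in 4T1, 135 in Eph4-ev, 103 in B16F10 and 110 in Melan-a. They were seen in a single line in 83 cases, in 2 lines in 56, in 3 in 30 and in all 4 in 40. Of the 209, 66 (31.6%) had reads in 1 library only and 11 (5.26%) in all 12. Among single-host circRNAs with reads these shares were 30.5% and 3.67%.

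The reads were concentrated in a few loci, which differed between lineages. In 4T1 the 3 circRNAs of Rbm4 and Gm21992 took between 31.6% and 33.7% of the reads of all circRNAs with several hosts, and in Eph4-ev between 24.4% and 26.0%. Their share was 8.90% to 13.0% in B16F10 and 11.1% to 14.9% in Melan-a. One circRNA of Rev1 and Eif5b took 1.04% to 2.28% in 4T1 and 11.4% to 15.2% in Eph4-ev. It took 44.5% to 46.0% in B16F10 and 16.7% to 25.6% in Melan-a.

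In these bulk libraries, fewer cells that hold a circRNA and less of it per cell cannot be told apart. The share of all junction reads in circRNAs with several hosts was 2.54%, 2.18% and 2.28% in 4T1, against 2.18%, 2.21% and 2.10% in Eph4-ev. The averages were 2.33% ± 0.185 in 4T1 and 2.16% ± 0.058 in Eph4-ev (mean ± SD, n = 3 each; exact two-sided permutation p = 0.2). In B16F10 the share was 2.36%, 2.86% and 2.49%, against 1.55%, 1.69% and 1.34% in Melan-a. The averages were 2.57% ± 0.262 in B16F10 and 1.52% ± 0.178 in Melan-a (mean ± SD, n = 3 each; exact two-sided permutation p = 0.1, the smallest that 3 against 3 allows). The B16F10 and Melan-a libraries did not overlap, while the 4T1 and Eph4-ev libraries did. The Rev1 circRNA made up most of the B16F10 difference: without it the share was 1.43% ± 0.152 in B16F10 and 1.18% ± 0.075 in Melan-a (mean ± SD, n = 3 each; exact permutation p = 0.1). Per library, the 95% Wilson interval of a share was at most 0.503 percentage points wide, covering counting error only.

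**Figure D3:**
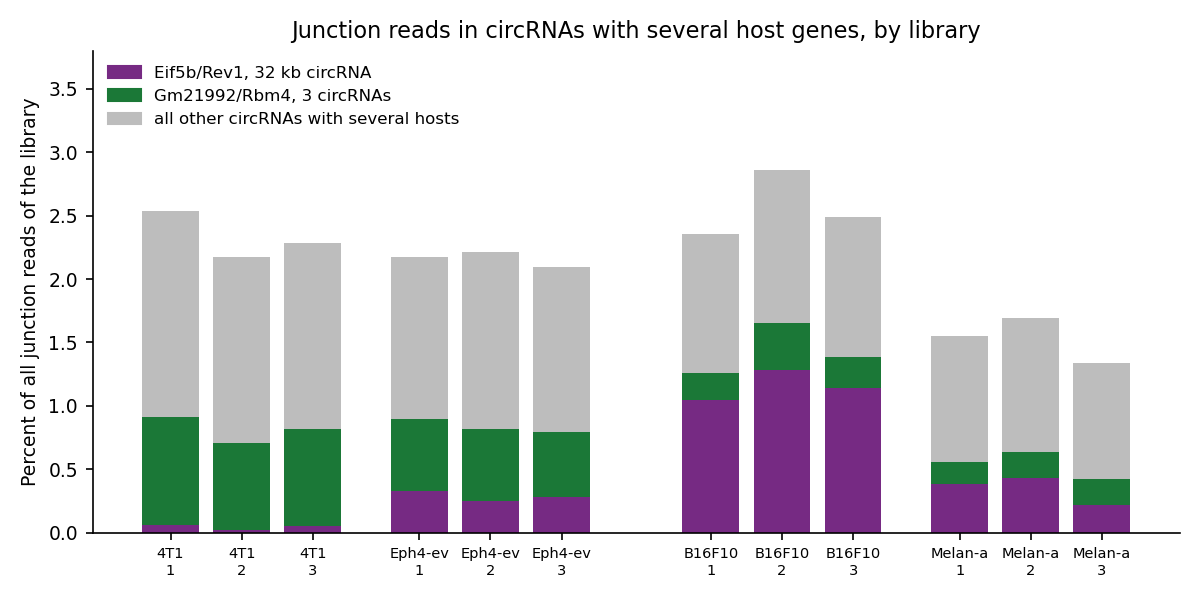
Percent of all junction reads of each library that fall in circRNAs with several host genes, split into the Eif5b/Rev1 circRNA of 32 kb (purple), the 3 Gm21992/Rbm4 circRNAs (green) and all others (grey). The purple part is 1.05% to 1.28% in B16F10 and 0.0226% to 0.0578% in 4T1, and the grey part lies between 0.914% and 1.62% in all 12 libraries.

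A library held 60.0 ± 8.72 of these circRNAs with at least 1 read in 4T1 and 83.7 ± 2.08 in Eph4-ev (mean ± SD, n = 3 each; exact two-sided permutation p = 0.1). Depth differed between these lines. With each of their libraries thinned to 15572 reads the numbers were 57.0 ± 8.19 in 4T1 and 62.0 ± 3.00 in Eph4-ev (mean ± SD, n = 3 each; exact permutation p = 0.5). In B16F10 a library held 60.7 ± 1.53 and in Melan-a 58.3 ± 10.3 (mean ± SD, n = 3 each; exact permutation p = 0.9). Thinned to 16697 reads, another depth than for 4T1 and Eph4-ev, the numbers were 60.3 ± 2.08 in B16F10 and 49.3 ± 9.504 in Melan-a (mean ± SD, n = 3 each; exact permutation p = 0.2).

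The Eif5b/Rev1 circRNA had the smallest p among circRNAs with several hosts in all 3 edgeR tests. Rev1 encodes a DNA polymerase of translesion synthesis, which copies past damaged bases, and Eif5b a translation initiation factor that helps the ribosomal subunits join. The circRNA spans 32037 bp and holds exons 7 to 22 of the 23 exons of the annotated coding Rev1 transcript, on the minus strand, both ends in the coding sequence. Its genomic start also lies in an exon of Eif5b, in the 3′ UTR on the plus strand, where the genes overlap tail to tail. Neither end is an exon edge of Eif5b.

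It had 9, 4 and 23 reads in 4T1, against 168, 143 and 158 in Eph4-ev. In B16F10 it had 210, 217 and 191 reads, against 97, 145 and 56 in Melan-a. The level was lower in every 4T1 library than in every Eph4-ev library and higher in every B16F10 library than in every Melan-a library. Mean levels were 439.6 ± 188 RPM in 4T1, 2895 ± 399 RPM in Eph4-ev, 11580.4 ± 1163 RPM in B16F10 and 3472 ± 1102 RPM in Melan-a (mean ± SD, n = 3 each). RPM is scaled to the junction reads that its own table lists for each library, and levels across the tables stand side by side without a test.

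By edgeR's quasi-likelihood test it was lower in 4T1 by a log2 fold of -2.88 (SE 0.33, adjusted p = 0.000453) and higher in B16F10 by 1.66 (SE 0.28, adjusted p = 0.00187). SE, here and below, is worked back as the absolute log2 fold divided by the square root of the test's F statistic. The log2 difference between the lineages, (4T1 over Eph4-ev) minus (B16F10 over Melan-a), was -4.63 (SE 0.45, adjusted p = 3.56e-07). All 3 results kept their direction and stayed past the threshold in every alternative run. Rev1 was the one circRNA with several hosts called in both lineages.

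Among single-host circRNAs of Rev1, the one with the most reads, chr1:38107568-38108467, had 6, 7 and 7 reads in 4T1, against 47, 45 and 72 in Eph4-ev (log2 fold -2.04 with SE 0.47 and adjusted p = 0.0150 by edgeR). It had 7, 7 and 9 reads in B16F10, against 10, 9 and 19 in Melan-a (log2 fold -0.17 with SE 0.53 and adjusted p = 0.901 by edgeR). Of all reads with Rev1 as host, the 32 kb circRNA held 39.1%, 30.8% and 50% in 4T1, against 72.1%, 67.5% and 64.0% in Eph4-ev, and 86.1%, 88.6% and 90.1% in B16F10, against 75.2%, 76.7% and 62.2% in Melan-a. Neither pair of lines overlapped.

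**Figure D4:**
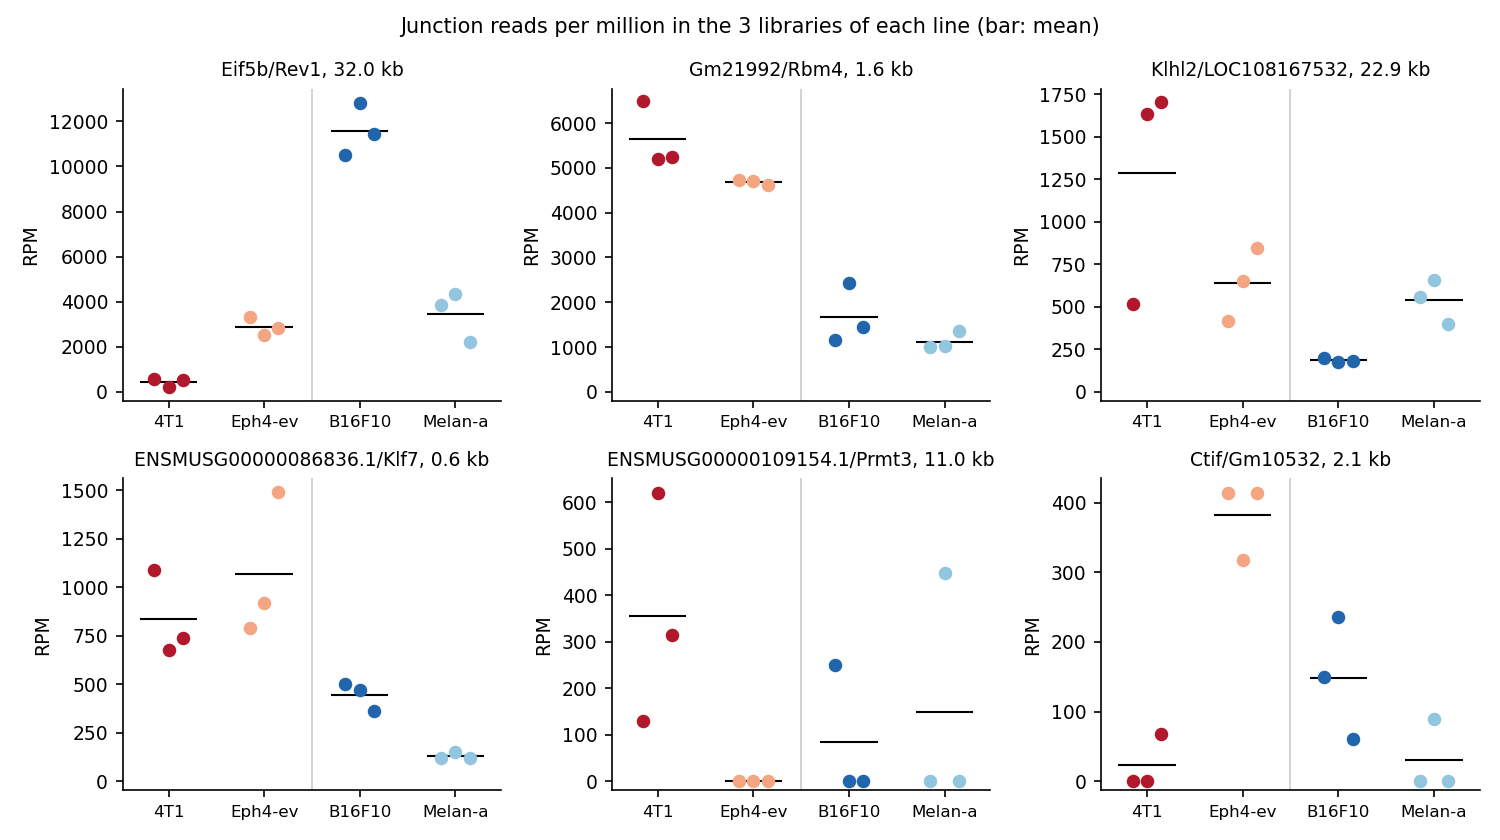
RPM of 6 circRNAs with several hosts in the 3 libraries of 4T1, Eph4-ev, B16F10 and Melan-a, with the mean as a bar; the panels have their own scales. The Eif5b/Rev1 circRNA is highest in all 3 B16F10 libraries and lowest in all 3 of 4T1, while Prmt3 has reads in 1 of 3 B16F10 and 1 of 3 Melan-a libraries.

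Across all circRNAs tested, 17.4% were called between 4T1 and Eph4-ev at an adjusted p under 0.05 (5.99% higher and 11.4% lower in 4T1). Of the circRNAs with several hosts, 32 of 160 passed the filter on low counts and 4 were called, 1 higher and 3 lower, with 11 at an unadjusted p under 0.05. Their median log2 fold was 0.09 and that of all circRNAs tested -0.22. The median of those with several hosts had no stable sign, though each run tested its own set. It was -0.30 without 4T1 replicate 3 (41 circRNAs), 0.67 without Eph4-ev replicate 2 (45) and -0.14 with DESeq2 (160, with no filter). The median of all circRNAs tested moved too, to -0.43, -0.12 and -0.47 in these runs, and lay below that of those with several hosts in each. Between B16F10 and Melan-a 10.9% of all circRNAs tested were called (5.03% higher and 5.84% lower in B16F10), and of 15 with several hosts that passed the filter, of 140 with reads, 1 was called, higher in B16F10. In this comparison 3 had an unadjusted p under 0.05, and the median log2 fold was 0.46 for circRNAs with several hosts and 0.04 for all tested. The value for those with several hosts was -0.20 without Melan-a replicate 1 (20 circRNAs), 0.06 without Melan-a replicate 3 (20) and 0.16 with DESeq2 (140, with no filter). For all tested it was 0.01, -0.006 and 0.09 in these runs. For the difference between lineages 11.5% of all were called (3.78% higher and 7.77% lower), and 4 of 26 with several hosts, 1 higher and 3 lower. The shares called among those with several hosts were thus 12.5%, 6.67% and 15.4% in the 3 tests, on 4, 1 and 4 circRNAs.

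**Figure D5:**
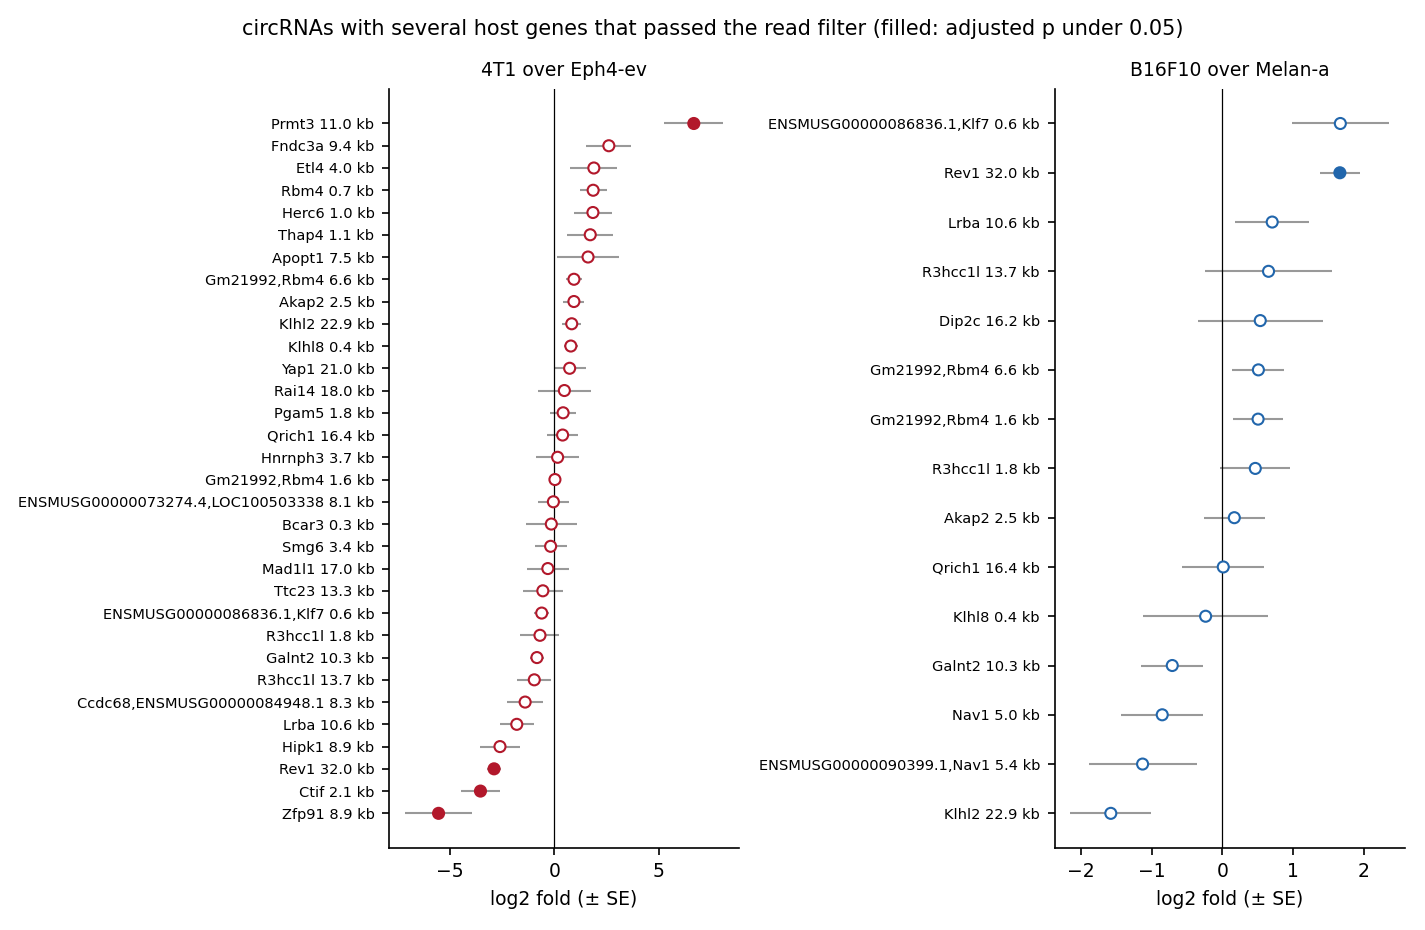
Log2 fold from edgeR, ± the SE worked back from the F statistic, for the 32 circRNAs with several hosts tested in 4T1 over Eph4-ev (red) and the 15 tested in B16F10 over Melan-a (blue). Points are labelled by closing host, or by both hosts where no transcript closes, and by span. Filled points have an adjusted p under 0.05. Filled are Prmt3, Rev1, Ctif and Zfp91 in the left panel and Rev1 in the right, and the left and right axes differ in scale.

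The other 3 calls between 4T1 and Eph4-ev rested on few reads. Each of these circRNAs passed the filter on low counts only through the line where it was higher, so entry to the test and the call are not independent. A circRNA of exons 11 to 13 of Prmt3 (chr7:49818032-49829030), which encodes a protein arginine methyltransferase, starts inside the gene ENSMUSG00000109154.1 on the same strand. It had 2, 11 and 14 reads in 4T1, against 0, 0 and 0 in Eph4-ev. With the 4T1 reads taken as observed and 3 counts over the Eph4-ev libraries as the floor, that is at least 18.8-fold higher in 4T1 (adjusted p = 0.0148, edgeR). The call was lost without 4T1 replicate 2 (adjusted p = 0.0586) or Eph4-ev replicate 2 (adjusted p = 0.0829). Single-host circRNAs of Prmt3 together had 24, 13 and 50 reads in 4T1, against 12, 43 and 39 in Eph4-ev. The Prmt3 circRNA with several hosts was found in all 3 libraries of 4T1 alone: it had 5, 0 and 0 reads in B16F10, against 0, 15 and 0 in Melan-a.

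A circRNA of exons 8 and 9 of Ctif (chr18:75519739-75521869), which encodes a translation initiation factor that works with the nuclear cap-binding complex, lies within the antisense gene Gm10532. It had 0, 0 and 3 reads in 4T1, against 21, 18 and 23 in Eph4-ev, a pooled ratio of 0.101 with a 95% exact counting interval of 0.0203 to 0.3095 (edgeR log2 fold -3.53, SE 0.94, adjusted p = 0.0266). The call was lost on leaving out any of 5 libraries, 4T1 replicates 1 and 2 and each Eph4-ev replicate, where the adjusted p ran up to 0.0995. In B16F10 it had 3, 4 and 1 reads, against 0, 3 and 0 in Melan-a, too few to pass the filter. No single-host circRNA of Ctif had reads in either table.

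A circRNA of exons 3 to 11 of Zfp91 (chr19:12770177-12779099), a zinc finger gene whose annotated extent nearly equals that of its other host Gm44505, had 0, 0 and 0 reads in 4T1, against 7, 6 and 9 in Eph4-ev. That is at least 3.51-fold lower in 4T1 against the same floor (adjusted p = 0.0434, edgeR), and 1 of the 9 alternatives whose filter it passed kept the call. It had 1, 1 and 0 reads in both B16F10 and Melan-a.

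The most abundant circRNA with several hosts in the mammary table came from Rbm4, which encodes an RNA-binding regulator of splicing and translation, and Gm21992, an annotated gene that contains it. The circRNA, chr19:4792398-4794009, opens 5′ of the annotated Rbm4, at an exon edge of Gm21992, and no annotated transcript holds both of its ends. It had 101, 92 and 234 reads in 4T1, against 239, 266 and 257 in Eph4-ev. In RPM this was 5639 ± 734 in 4T1 and 4680 ± 48 in Eph4-ev (mean ± SD, n = 3 each), without overlap, but the edgeR log2 fold was 0.03 (SE 0.16, adjusted p = 0.928) and 6 of 12 alternatives gave the other sign. The B16F10 libraries had 23, 41 and 24 reads, against 25, 34 and 34 in Melan-a (log2 fold 0.50 with SE 0.35 and adjusted p = 0.447 by edgeR).

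A longer circRNA from the same opening edge, chr19:4787361-4794009, had 26, 23 and 63 reads in 4T1, against 36, 50 and 19 in Eph4-ev (log2 fold 0.94 with SE 0.38 and adjusted p = 0.123 by edgeR). It had 19, 22 and 15 reads in B16F10, against 18, 25 and 16 in Melan-a (log2 fold 0.51 with SE 0.37 and adjusted p = 0.463 by edgeR). The third, chr19:4787361-4788042, named here after its values were seen, had 6, 7 and 45 reads in 4T1, against 11, 5 and 8 in Eph4-ev. It passed the threshold when scaled by total reads (log2 fold 2.05, adjusted p = 0.0452) and with a minimum count of 10 (adjusted p = 0.0400), not otherwise. The tables hold no single-host circRNA of Rbm4 or Gm21992. Rbm4b, a close paralog, lies in Gm21992 too, and how reads were placed between the copies is not given in the sources used here.

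After Rev1, Klhl2 and Klf7 had the smallest p between B16F10 and Melan-a among the circRNAs with several hosts, above the threshold after adjustment. The Klf7 circRNA (chr1:64078704-64079334) lies within the antisense gene ENSMUSG00000086836.1, and its genomic start is not an annotated exon edge. Klf7 encodes a Krüppel-like transcription factor. It had 17, 12 and 33 reads in 4T1, against 40, 52 and 83 in Eph4-ev (log2 fold -0.60 with SE 0.37 and adjusted p = 0.309 by edgeR). In B16F10 it had 10, 8 and 6 reads, against 3, 5 and 3 in Melan-a, without overlap in RPM (log2 fold 1.67 with SE 0.69 and adjusted p = 0.143 by edgeR). The difference between lineages was -2.36 (SE 0.72, adjusted p = 0.0347, edgeR), and 15 of 16 alternatives did not keep it past the threshold.

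Klhl2 encodes a substrate adaptor of a Cullin ubiquitin ligase, and its circRNA holds exons 2 to 4; the other host, LOC108167532, had no match. It had 8, 29 and 76 reads in 4T1, against 21, 37 and 47 in Eph4-ev, with overlap in RPM (log2 fold 0.83 with SE 0.46 and adjusted p = 0.254 by edgeR). In B16F10 it had 4, 3 and 3 reads, against 14, 22 and 10 in Melan-a, without overlap (log2 fold -1.58 with SE 0.57 and adjusted p = 0.0932 by edgeR). The difference between lineages was 2.33 (SE 0.77, adjusted p = 0.0517, edgeR), and it passed with RLE factors, with total reads and with DESeq2 (adjusted p = 0.0292, 0.0324 and 0.0199). In all it passed in 5 of 16 alternatives, the other 2 being without 4T1 replicate 1 (adjusted p = 0.0229) and without Melan-a replicate 3 (adjusted p = 0.0444).

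The other abundant circRNAs named by rank did not pass the test in either lineage. Galnt2 encodes an enzyme that starts mucin-type O-glycosylation, and its exons 2 and 3 gave 21, 11 and 28 reads in 4T1, against 58, 78 and 70 in Eph4-ev (log2 fold -0.83 with SE 0.35 and adjusted p = 0.136 by edgeR). It had 9, 7 and 9 reads in B16F10, against 19, 29 and 14 in Melan-a (log2 fold -0.71 with SE 0.44 and adjusted p = 0.366 by edgeR). This circRNA passed between 4T1 and Eph4-ev in 1 of 12 alternatives, without 4T1 replicate 1. Exon 1 of Klhl8, a relative of Klhl2, had 30, 23 and 56 reads in 4T1, against 45, 45 and 27 in Eph4-ev, without overlap in RPM (log2 fold 0.79 with SE 0.34 and adjusted p = 0.144 by edgeR).

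Exon 3 of Akap2 (2476 bp) had 14, 10 and 40 reads in 4T1, against 13, 13 and 32 in Eph4-ev. It had 25, 22 and 13 reads in B16F10, against 12, 28 and 39 in Melan-a. Exon 2 of R3hcc1l had 6, 7 and 31 reads in 4T1, against 58, 58 and 0 in Eph4-ev. It had 11, 11 and 14 reads in B16F10, against 11, 8 and 19 in Melan-a. Exons 37 to 39 of Lrba, which encodes a protein of vesicle trafficking, had 2, 7 and 1 reads in 4T1, against 19, 25 and 32 in Eph4-ev (log2 fold -1.80 with SE 0.80 and adjusted p = 0.156 by edgeR), and passed without 4T1 replicate 2 (adjusted p = 0.0386). A circRNA of Pgam5, which encodes a mitochondrial phosphatase, was found in all 12 libraries, with 4, 9 and 37 reads in 4T1, against 7, 23 and 30 in Eph4-ev, and 2, 3 and 2 in B16F10, against 3, 12 and 2 in Melan-a. Exons 2 to 6 of Qrich1 had 5, 5 and 18 reads in 4T1, against 16, 17 and 3 in Eph4-ev.

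Some of these circRNAs had at least 2 reads in each library of one line and 0 in each of the other line of its lineage. In 4T1 there was 1 (Prmt3), of 52 circRNAs with this pattern in that line (1.92%), and in Eph4-ev there were 7 of 334 (2.10%). CircRNAs with several hosts are 1.69% of those the mammary table lists. The 4T1 libraries held 15572, 17735 and 44625 junction reads, against 50648, 56649 and 55549 in Eph4-ev, so 0 reads is reached more easily in 4T1. In B16F10 there was 1 of 33, and in Melan-a 0 of 44. Beside Zfp91, the Eph4-ev ones with the most reads came from Cadm1, a cell adhesion gene, from Itpr1, which encodes a calcium channel of the endoplasmic reticulum, and from Suz12, a Polycomb subunit gene. The Cadm1 circRNA had 0, 0 and 0 reads in 4T1, against 4, 11 and 4 in Eph4-ev, at least 3.03-fold lower in 4T1. The Itpr1 circRNA had 0, 0 and 0 reads in 4T1, against 10, 2 and 5 in Eph4-ev, at least 2.71-fold lower in 4T1. The Suz12 circRNA had 0, 0 and 0 reads in 4T1, against 3, 10 and 3 in Eph4-ev, at least 2.55-fold lower in 4T1. All 3 had reads in B16F10 and in Melan-a, though few and not in every library. The Suz12 circRNA had 0, 1 and 0 reads in B16F10, against 0, 7 and 0 in Melan-a. That of Cadm1 had 3, 1 and 6, against 0, 20 and 2, and that of Itpr1 2, 1 and 3, against 7, 2 and 0. None of the 3 passed the filter on low counts, and their bounds take the Eph4-ev reads as observed.

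The one found in B16F10 came from Zeb2, which encodes a transcriptional repressor known for its part in epithelial-mesenchymal transition, and the microRNA gene Mir5129. It spans exons 3 and 4 of an annotated Zeb2 transcript (chr2:45017397-45023104). It had 5, 2 and 4 reads in B16F10, against 0, 0 and 0 in Melan-a, at least 5.73-fold higher in B16F10 with its reads taken as observed. In 4T1 it had 2, 3 and 0 reads, against 0, 0 and 0 in Eph4-ev. The one single-host circRNA of Zeb2, in the melanocyte table, had 0, 0 and 0 reads in B16F10, against 4, 2 and 0 in Melan-a. The mammary table lists none, so a sum over single-host circRNAs gives Zeb2 reads in Melan-a alone. The Zeb2 transcripts were not measured here apart from these junctions.

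The hairpin of Mir5129 (chr2:45023100-45023177, minus strand) has 78 bases, and its last 5 are the first 5 of the circRNA, at the edge of the opening exon. The other 73 lie outside. In the RefSeq sequence (GRCm38.p6) shown to mark that overlap, the shared bases are in capitals.
Mir5129 hairpin, chr2:45023100-45023177, minus strand: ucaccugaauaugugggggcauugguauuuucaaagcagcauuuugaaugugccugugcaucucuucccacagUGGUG
Neither mature microRNA lies in the circRNA; they are given with the seed, bases 2 to 8, in capitals.
mmu-miR-5129-5p: aUGUGGGGgcauugguauuuuc
mmu-miR-5129-3p: aAUGUGCCugugcaucucuucc

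What a sum over single-host circRNAs leaves out can be given per closing host. Among 110 closing hosts with reads in the mammary table, 46 (41.8%) had no single-host read at all, and the median share left out was 69.1%. Of 96 in the melanocyte table, 42 (43.8%) had none, and the median was 84.5%. Hosts entered these lists only by having reads of circRNAs with several hosts, so the shares are not those of hosts in general. Some hosts at 100% rested on 1 read, such as Evpl and Mmd in the mammary table and Elk4 and Ercc2 in the melanocyte table. More than 1 circRNA with several hosts had reads for 33 of the 110 and 28 of the 96, and 4 was the most for any host. In the mammary table the share left out was 66.4% for Rev1, 98.5% for Galnt2, 92.3% for Klhl2, 100% for Klhl8, Akap2 and Pgam5, and 27.1% for Qrich1. In the melanocyte table it was 83.3% for Rev1, 92.6% for Galnt2, 91.8% for Klhl2, 100% for Akap2 and 32.5% for Qrich1.

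Over all named hosts together, circRNAs with several hosts held 30.4% ± 2.56 of the junction reads of their loci in 4T1 and 33.5% ± 0.896 in Eph4-ev (mean ± SD, n = 3 each; exact two-sided permutation p = 0.1). They held 37.7% ± 2.42 in B16F10 and 31.4% ± 3.88 in Melan-a (mean ± SD, n = 3 each; exact permutation p = 0.1). Without the Rev1 circRNA the share was 24.98% ± 2.06 in B16F10 and 26.2% ± 2.70 in Melan-a (mean ± SD, n = 3 each; exact permutation p = 0.5).

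Some circRNAs had many reads in part of a line's libraries and 0 in another. Of 31 circRNAs with several hosts and at least 20 reads in Eph4-ev, 7 (22.6%) had 0 reads in at least 1 of its 3 libraries, against 5.97% of 1475 single-host circRNAs. In 4T1 it was 0 of 17 with several hosts, against 12.1% of 809 with a single host, in B16F10 1 of 10 against 2.02% of 495, and in Melan-a 1 of 14 against 5.91% of 761. A circRNA of Ube3a, a ubiquitin ligase gene, had 42, 0 and 0 reads in Eph4-ev, and in B16F10 0, 0 and 27. One of Pdss2 had 0, 47 and 30 reads in Eph4-ev, one of Dennd1b 20, 34 and 0, and that of R3hcc1l 58, 58 and 0. The first of these was called with no filter in both lineages, and Pdss2 and Dennd1b were called with no filter between 4T1, at 0 in all 3 libraries, and Eph4-ev. These, other than R3hcc1l, were named after their values were seen.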

How the data were processed

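RNA treated with RNase R was sequenced in 12 libraries, 3 of each of 4 lines. CircRNA calls came from 2 programs per the labels' protocols, CIRI2 run after BWA-MEM and CIRCexplorer2 run after TopHat with TopHat-Fusion. The submitters' processing notes name mm10 as build. The sources used here do not say how calls were merged or filtered, or which annotation gave the hosts. The deposited count columns hold raw junction reads. The RPM columns hold, in the authors' scaling, each count relative to the summed junction reads of its own column, and describe levels here.

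Hosts were taken as the authors named them, and matched to GENCODE M21 (392 of 443) or RefSeq GRCm38.p6 (41), with 10 unmatched. Each lineage was tested on whole tables with edgeR 4.0.16 in R 4.3.3 (quasi-likelihood, TMM factors, filterByExpr with minimum count 5 and minimum total 10, Benjamini-Hochberg adjustment over all circRNAs tested), after the fit was tested on simulated data. The difference between lineages used all 12 libraries and circRNAs listed in both tables. Folds are tumour over non-tumour line. As alternatives, DESeq2 1.42.0, RLE factors, total reads as scale, other filters, a replicate block and leaving out each library were run.

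Named circRNAs were the 8 most abundant per table, those called, the 8 highest of those in all 12 libraries, up to 4 found in 1 line of a lineage, the 3 longest and 3 shortest, and the one with most hosts. Where the host field held 2 sets of names (4 circRNAs a table), different names were counted. The members and lists were chosen with earlier results of these data known. Splice-site bases were not analysed here. The labels mention no molecular identifiers, so intervals and floors (3 counts over a line's libraries) cover counting error only. Lower bounds and the pooled ratio use library totals as scale.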

Additional observations from a re-analysis of the deposited data

Results flagged for a closer look

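For 4 circRNAs with several hosts edgeR's interaction term over 12 libraries passed the threshold, and each value is the log2 fold of 4T1 over Eph4-ev minus that of B16F10 over Melan-a. It was -4.63 for the Eif5b/Rev1 circRNA (adjusted p = 3.56e-07), which was lower in all 3 libraries of 4T1 than of Eph4-ev and higher in all 3 of B16F10 than of Melan-a. It was -5.57 for Ctif (adjusted p = 0.0323), -2.36 for Klf7 (adjusted p = 0.0347) and 7.14 for Prmt3 (adjusted p = 0.0481). The Rev1 value passed in 16 of 16 alternatives, Ctif in 6, Prmt3 in 5 and Klf7 in 1. Without Melan-a replicate 2, which held 15 reads, the Prmt3 value was 1.82 (adjusted p = 0.99984). Neither Prmt3 nor Ctif passed the filter on low counts between B16F10 and Melan-a, where Prmt3 had 5, 0 and 0 reads in B16F10, against 0, 15 and 0 in Melan-a, and Ctif 3, 4 and 1, against 0, 3 and 0. They entered through the mammary libraries, so the melanocyte side of these differences was not tested by itself. The fitted values of Prmt3 and Ctif come from lines with libraries at 0 and depend on the prior count. The median of all 1403 circRNAs tested was -0.42, against -0.17 with RLE factors and -0.22 with total reads.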

How the results depend on the processing

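With 15572 to 56649 junction reads per library, 128 of the 160 circRNAs with several hosts in the mammary table and 125 of the 140 with reads in the melanocyte table did not pass the filter on low counts, through low totals or through libraries at 0, and were not tested. The 4 calls between 4T1 and Eph4-ev became 6 (1 higher, 5 lower) with no filter, which loses Zfp91 and adds Pdss2, Dennd1b and Ube3a (adjusted p = 2.43e-05, 0.00103 and 0.0065), each with 0 reads in all 3 libraries of 4T1 and in 1 or 2 of Eph4-ev. Among circRNAs with at least 2 named hosts (unnamed meaning an ID, Gm, LOC, Rik, Mir or Snor symbol), 3 were tested and 1, that of Rev1, was called. On leaving out a library the calls became 1 to 4: 2 without 4T1 replicate 2 and 1 without Eph4-ev replicate 2. These counts include circRNAs that were not among the 4, such as Lrba without 4T1 replicate 2 and Pdss2 and Fndc3a without Eph4-ev replicate 1. With total reads the calls with several hosts were 2 higher and 2 lower, and over all circRNAs 142 higher and 176 lower, against 112 and 213 with TMM. The 1 call between B16F10 and Melan-a became 2 with no filter, by Ube3a (adjusted p = 0.000533). The 4 calls between lineages became 2 to 5 on leaving out a library, with 2 without Eph4-ev replicate 2 or 3. Some of these, too, were not among the 4. Without Eph4-ev replicate 2 or 3 the 2 were Rev1 and Ube3a (adjusted p = 0.00795 and 0.00894 for Ube3a, edgeR). Tbck, Pdss2, Dennd1b, Klhl2 and Lrba each entered in some other such run. The labels' replicate numbers did not pair libraries (same-number correlations at most 0.067), and the replicate block gave 3, 1 and 1 calls in the 3 tests. The difference in the share of reads, 4T1 minus Eph4-ev, was -0.177 percentage points with named hosts only. That value includes the Rev1 circRNA, at 0.0226% to 0.0578% of reads in 4T1 and 0.252% to 0.332% in Eph4-ev, and was not computed without it. In B16F10 minus Melan-a, the locus share turned to -1.21 points without the Rev1 circRNA, and the number detected to -0.333 with at least 2 reads and to between -3.33 and 6.67 on leaving out a library. An alternative chosen after seeing the data, without the Rev1 and the 3 Rbm4 circRNAs, left share differences of 0.194 points in 4T1 and 0.151 in B16F10. Among circRNAs that were not called, signs turned for Rbm4 of 1612 bp in 4T1 (-0.011 with DESeq2, -0.25 with no filter, -0.13 to 0.057 leaving out a library) and Qrich1 in B16F10 (-0.017 with RLE factors, -0.0033 with DESeq2, -0.37 to 0.32 leaving out a library). They also turned on leaving out a library for Qrich1 (-0.15 to 0.63) and Pgam5 (-0.30 to 0.71) in 4T1, and Klhl8 (-0.79 to 0.34) and Akap2 (-0.19 to 0.63) in B16F10. The median log2 fold of circRNAs with several hosts ran from -0.30 to 0.67 in 4T1 and from -0.20 to 0.33 in B16F10 on leaving out a library, each over the circRNAs that passed the filter in that run. The causes were not tested.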
